A study of Homo sapiens with 6 samples.

Results

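The genes of the lysosome, of its proton pump and of autophagy were examined in the human cell line KYSE-150, which comes from a squamous carcinoma of the esophagus. They were chosen by name and role, with earlier results of these data known, as 45 of the 29816 genes in the deposited table. They form 3 groups, with 20 lysosomal genes (hydrolases, their cofactors, membrane proteins and regulators), 13 genes of the vacuolar proton pump (V-ATPase) and 12 autophagy genes. Cells of 1 line had received either si-circTMEM45A, a small interfering RNA aimed at a circular RNA of the TMEM45A gene, or the control small interfering RNA si-NC, and 3 libraries of polyA RNA were made for each. Both groups therefore share the line and the transfection, and 1 line treated with 1 targeting RNA was all that was compared. Whether the 3 replicates of a group came from separate cultures is not stated, so p-values here speak to the variation among libraries and that variation could be technical.

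Lysosomes are acidic compartments in which hydrolases such as the cathepsins break down proteins, lipids and sugars. The V-ATPase acidifies them. Its V1 sector, outside the membrane, hydrolyses ATP, and its V0 sector, in the membrane, carries the protons. Macroautophagy brings cytoplasm to the lysosome. The ULK1 kinase complex and the BECN1 lipid kinase complex start the autophagosome, the ATG5 and ATG16L1 machinery attaches LC3 and GABARAP proteins to its membrane, and receptors such as SQSTM1 and OPTN load the cargo. The transcription factors TFEB and TFE3 are known to raise many of these genes together by binding the E-box-containing CLEAR element in their promoters.

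The libraries held 16636248 to 17323964 gene-assigned reads each, and values are FPKM, fragments counted on a gene relative to its length and to the total of the library. Squamous markers were present, with KRT5 at 351 to 373 FPKM in si-NC libraries and 231 to 250 FPKM in si-circTMEM45A libraries and TP63 at 26.9 to 28.4 and 18.6 to 21.7 FPKM. Of 8 squamous markers 7 were tested, and 5 fell and 1, KRT17, rose. KRT6A, which was not tested, had only 0.80 to 0.91 FPKM with si-NC and 0.18 to 0.39 FPKM with si-circTMEM45A. The part of the shift in these markers in the results below was not tested. Leukocytes are rich in lysosomes. The 5 leukocyte markers with values, of 8 listed, summed to 0.22 to 0.81 FPKM in si-NC libraries and 0.26 to 0.54 FPKM in si-circTMEM45A libraries, and PTPRC, which defines leukocytes, was at 0 in 2 of 3 libraries of each group. The host gene TMEM45A had 3.12 ± 0.19 FPKM (SD, n = 3) with si-NC and 2.12 ± 0.22 FPKM with si-circTMEM45A (limma adjusted p = 0.0167). The circle itself was not measured.

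Of the 45 genes, 40 reached the filter of at least 1 FPKM in at least 3 libraries and were tested. With si-circTMEM45A, 10 of the 40 rose and 1 fell at an adjusted p of 0.05 in limma, a linear model fitted to log2(FPKM + 1) across all tested genes. Without si-NC replicate 1 or 2 the count that rose was 6 or 4, without si-circTMEM45A replicate 2 or 3 it was 5 or 6, and without either of the other 2 libraries it was 7 or 9. The count that fell was 0 without any 1 library. With low genes kept in, 3 rose and 0 fell. Among all genes, the share called higher was 6.11% to 8.58% without 1 library and 2.44% with low genes kept in. The share called lower was 4.32% to 6.76% and 1.76%. With the filter raised to 5 FPKM, 10 of 37 tested members rose and 1 fell. Of the 7679 genes then tested, 17.7% were called higher and 12.3% lower, 30% in all. The fit with all 6 libraries and the filter at 1 FPKM tested 12676 genes. There the same threshold called 11.1% higher, 7.64% lower and 18.8% in either direction. The genes that rose were 5 of 11 tested autophagy genes (GABARAPL1, SQSTM1, ATG16L1, ULK1 and BECN1), 4 of 12 tested pump genes (ATP6V0A1, ATP6V0B, ATP6V0D1 and ATP6V0E1) and 1 of 17 tested lysosomal genes (CTSD). The gene that fell was the lysosomal CTSB. In the lysosomal group the calls, 1 in each direction, were thus no more frequent than the background, while the pump and autophagy groups had their calls in 1 direction. The median log2 fold change was 0.03 for lysosomal genes, 0.08 for pump genes and 0.14 for autophagy genes, against 0.03 for all tested genes.

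**Figure D1:**
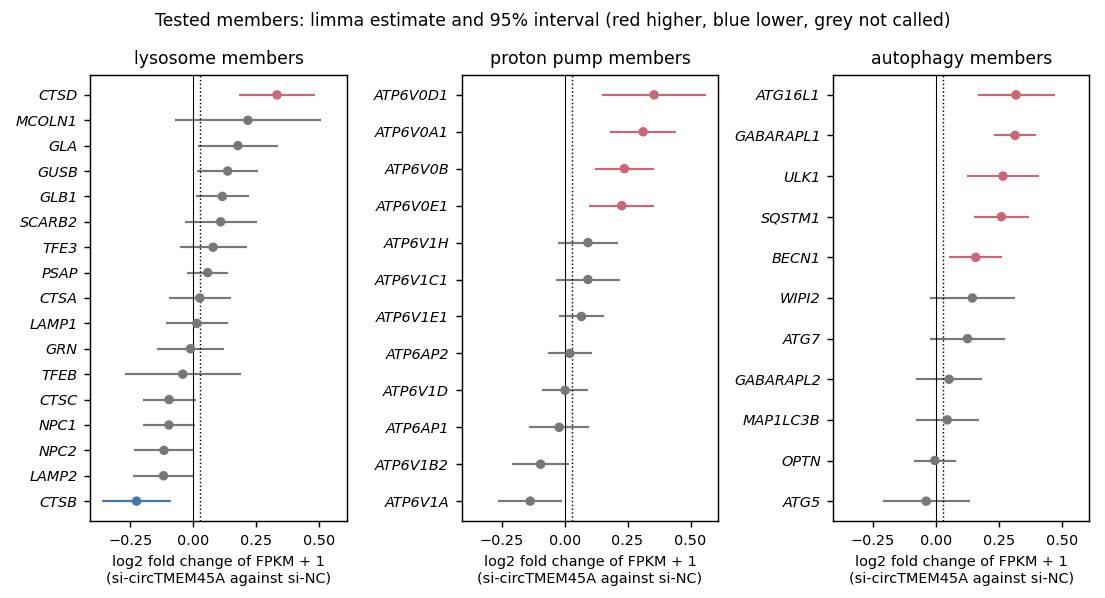
Log2 fold change of FPKM + 1 between si-circTMEM45A and si-NC for the 40 tested genes, 1 panel per group, with the limma estimate (point) and its 95% interval (line). The dotted line is the median of all tested genes, 0.03. Red points (10 genes) rose and the blue point (CTSB) fell. Every estimate lies between -0.22 and 0.36.

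All changes were small. The mean FPKM of the genes that rose was 12.7% (BECN1) to 30.8% (ATP6V0D1) higher with si-circTMEM45A, and CTSB fell by 15.2%. Each called gene rested on 690 to 7008 reads per library. For these genes the 2 groups of libraries did not overlap, and an exact two-sided permutation test of any of them gave p = 0.1, below which 3 against 3 libraries cannot go. Over the 40 tested genes the libraries of the 2 groups did not overlap for 18, 14 of them higher and 4 lower with si-circTMEM45A. The shares among all tested genes were 23.3% higher and 16% lower, 39.2% in all. Log2 fold changes are on the log2(FPKM + 1) scale, which understates the change of low genes. The fall or rise of an RNA per cell cannot be told apart from a change in the makeup of the culture in bulk RNA.

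**Figure D2:**
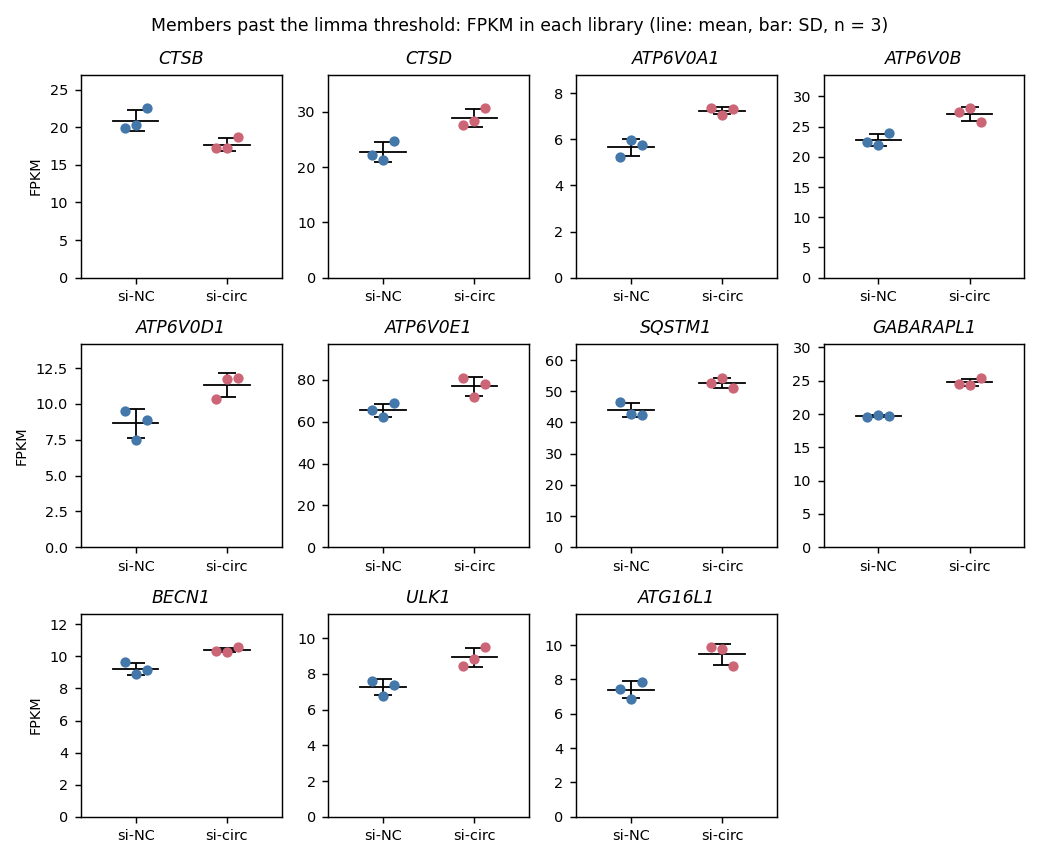
FPKM of the 11 genes past the limma threshold, 1 point per library, with the mean (line) and SD (bar) of 3 si-NC and 3 si-circTMEM45A (si-circ) libraries. Each vertical axis starts at 0. The points of the 2 groups do not overlap in any panel, and CTSB is the gene with lower values after si-circTMEM45A.

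Among the soluble hydrolases, 2 well-known cathepsins moved in opposite directions. CTSD, the main lysosomal aspartic protease (ENSG00000117984, GRCh38 chromosome 11, 1752752 to 1764573), had 22.2, 21.2 and 24.7 FPKM in the si-NC libraries and 27.6, 28.3 and 30.6 FPKM in the si-circTMEM45A libraries. All 3 si-circTMEM45A libraries lay above the highest si-NC library. The mean went from 22.7 ± 1.79 to 28.8 ± 1.57 FPKM (SD, n = 3), a log2 fold change of 0.33 ± 0.06 (SE; adjusted p = 0.0147 by limma). The annotation gives 41.7% of its exon length also to another gene on the same strand, a protein-coding model with a mean of 0.11 FPKM, so its value is uncertain to that extent. CTSB, a cysteine protease (ENSG00000164733, GRCh38 chromosome 8, 11842524 to 11869448), had 19.9, 20.3 and 22.5 FPKM with si-NC and 17.2, 17.3 and 18.7 FPKM with si-circTMEM45A. Each si-circTMEM45A library was below each si-NC library. Its log2 fold change was -0.22 ± 0.06 (SE; adjusted p = 0.0377 by limma). The CTSD call was lost at adjusted p = 0.05001 in limma without si-NC replicate 1 and at 0.0546 when low genes were kept in (range over 17 alternatives 0.000197 to 0.0546). The CTSB call was lost at 0.105 when low genes were kept in, at 0.0629 with no variance trend, and in limma without any 1 library, at adjusted p = 0.0528, 0.0721 and 0.0913 without si-NC replicates 1, 2 and 3 and 0.0874, 0.104 and 0.0523 without si-circTMEM45A replicates 1, 2 and 3 (range over 17 alternatives 0.00199 to 0.105).

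The other tested hydrolases and cofactors did not pass. PSAP, the precursor of the saposins that help degrade sphingolipids, was the most abundant member, with 156, 160 and 167 FPKM with si-NC and 168, 165 and 169 FPKM with si-circTMEM45A. The 2 groups overlapped, and the log2 fold change was 0.06 ± 0.03 (SE; adjusted p = 0.293 by limma). The glycosidases GLA, GLB1 and GUSB, which remove terminal sugars, had log2 fold changes of 0.18, 0.12 and 0.14, with limma adjusted p between 0.109 and 0.118. For GLB1 and GUSB the groups did not overlap, and for GLA they did. The protective protein CTSA, the dipeptidyl peptidase CTSC and the granulin precursor GRN had log2 fold changes of 0.03, -0.10 and -0.01. The cysteine proteases CTSL and CTSZ and the hexosaminidase subunit HEXA did not reach the filter. CTSL was listed at 0 in 5 of 6 libraries, CTSZ had 0.06 to 0.34 FPKM and HEXA had 0.49 to 0.62 FPKM. Other genes on the same strand share 4.89% of the exon length of HEXA and none of that of CTSL or CTSZ. Whether these low values are the levels of the genes was not tested.

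None of the 6 tested members of the lysosomal membrane and of cholesterol transport passed in limma, and 0 had an unadjusted p under 0.05. LAMP1, a major glycoprotein of the lysosomal membrane, had 40.8, 44.9 and 39.4 FPKM with si-NC and 41.5, 43.2 and 41.4 FPKM with si-circTMEM45A. The groups overlapped, and the 95% interval of the log2 fold change ran from -0.11 to 0.14 (limma adjusted p = 0.879). LAMP2, its close relative, and the cholesterol carriers NPC1 and NPC2 had log2 fold changes of -0.12, -0.10 and -0.12 (limma adjusted p 0.153 to 0.172). SCARB2, a receptor of the lysosomal membrane, had a log2 fold change of 0.11 (limma adjusted p = 0.258). MCOLN1, the lysosomal calcium channel, was low, with 2.32, 2.89 and 2.86 FPKM with si-NC and 3.00, 4.09 and 2.85 FPKM with si-circTMEM45A. Its highest library was si-circTMEM45A replicate 2, the lowest si-circTMEM45A value lay inside the si-NC range, and limma gave an adjusted p of 0.265.

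Of the 2 transcription factors, TFE3 was far more abundant than TFEB on the FPKM scale. TFE3 had 23.2, 20.6 and 22.8 FPKM with si-NC and 23.8, 24.3 and 22.3 FPKM with si-circTMEM45A. TFEB had 1.74, 1.69 and 1.75 FPKM with si-NC and 1.42, 1.91 and 1.65 FPKM with si-circTMEM45A. In both genes the groups overlapped. The 95% interval of the log2 fold change was -0.05 to 0.21 for TFE3 (limma adjusted p = 0.376) and -0.27 to 0.19 for TFEB (limma adjusted p = 0.805). The activity and location of these factors, which are set largely by phosphorylation, were not measured.

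The promoter letters that such factors bind are shown for the members that hold them, because some of these members rose and others did not. RefSeq promoter windows (GRCh38.p14, 250 bases before to 50 after the start) were matched for 36 of the 45 genes. The E-box CACGTG, which reads the same on both strands, was in 6 of these 36 windows (16.7%), in 10.3% of the 8927 windows of tested genes and in 7.43% of all 27305 windows. The longer TCACGTGA, which contains it and forms the core of the CLEAR element, was in 4 of 36 windows (11.1%), in 2.03% of those of tested genes and in 1.04% of all. None of the 12 autophagy windows held CACGTG. The 6 windows held 14 sites, 6 in LAMP1, 2 each in MCOLN1, CTSA and ATP6V0B and 1 each in ATP6V0D1 and CTSD. For each gene 1 of them is printed with its surroundings, 30 bases, 5′ to 3′ on the strand of the gene. It is the first site with the longest of the 3 words that the gene holds, and that word is in capitals.
ATP6V0D1, called higher (chr16:67481199-67481228, minus strand): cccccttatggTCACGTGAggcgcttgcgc
ATP6V0B, called higher (chr1:43974891-43974920, plus strand): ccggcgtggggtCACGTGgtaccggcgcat
CTSD, called higher (chr11:1763957-1763986, minus strand): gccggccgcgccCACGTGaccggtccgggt
LAMP1, not called (chr13:113297199-113297228, plus strand): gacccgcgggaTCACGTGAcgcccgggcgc
MCOLN1, not called (chr19:7522598-7522627, plus strand): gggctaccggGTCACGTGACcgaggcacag
CTSA, not called (chr20:45891298-45891327, plus strand): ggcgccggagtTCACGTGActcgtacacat
Of the 6 genes with the E-box, ATP6V0B, ATP6V0D1 and CTSD rose, and LAMP1, MCOLN1 and CTSA did not pass. TCACGTGA was in LAMP1, MCOLN1, CTSA and ATP6V0D1. Of the 9 windows of members called higher, 3 held the E-box (33.3%), beside 10.3% of the 1065 windows of all tested genes called higher. Called or not, lysosomal members held it in 25% of 16 windows and pump members in 25% of 8. Whether the E-box goes with a rise was not tested. MCOLN1 was the 1 member with the whole 10-base CLEAR palindrome, found in 0.84% of the windows of tested genes. GABARAPL1, SQSTM1, ULK1, ATG16L1 and BECN1 rose with no E-box in these windows. The remaining window of a member called higher, that of ATP6V0A1 or ATP6V0E1, held no E-box either. The other of these V0 genes had no window. A match is a description of the letters and not a measured site.

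In the proton pump, the genes that rose were all V0 genes. The 4 tested V0 members rose and 0 of 6 V1 members passed in limma (1, ATP6V1A, had an unadjusted p under 0.05). This split by sector was made with the values known, and the difference between the sectors was not itself tested. ATP6V0A1, an isoform of the large membrane subunit a through which protons cross (ENSG00000033627, GRCh38 chromosome 17, 42458844 to 42522611), had 5.25, 5.96 and 5.74 FPKM with si-NC and 7.34, 7.07 and 7.33 FPKM with si-circTMEM45A. The lowest si-circTMEM45A library was well above the highest si-NC library. The mean went from 5.65 ± 0.36 to 7.25 ± 0.16 FPKM (SD, n = 3), a log2 fold change of 0.31 ± 0.06 (SE; adjusted p = 0.0106 by limma), and the call held in all 17 alternatives. ATP6V0D1, the subunit that couples the ring to the stalk, and whose promoter window holds TCACGTGA, had 9.51, 7.51 and 8.90 FPKM with si-NC and 10.3, 11.8 and 11.8 FPKM with si-circTMEM45A. Its si-NC replicate 2 was the lowest library, and its log2 fold change of 0.36 ± 0.09 (SE; adjusted p = 0.0328 by limma) had the largest error of the 4.

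The other pair of V0 genes encodes small membrane subunits. ATP6V0B, the c'' subunit of the proton-carrying ring, had 22.5, 21.95 and 24.0 FPKM with si-NC and 27.4, 28.0 and 25.7 FPKM with si-circTMEM45A. The groups did not overlap, and the log2 fold change was 0.24 ± 0.05 (SE; adjusted p = 0.0185 by limma). ATP6V0E1, subunit e and the most abundant tested pump member, had 65.5, 62.5 and 68.7 FPKM with si-NC and 80.9, 71.9 and 77.9 FPKM with si-circTMEM45A. Again each si-circTMEM45A library was higher than each si-NC library, with a log2 fold change of 0.23 ± 0.05 (SE; adjusted p = 0.0301 by limma). The fifth V0 member, ATP6V0C, encodes the main ring subunit and had 0.08 to 0.47 FPKM. The annotation gives 72.1% of its exon length also to other genes on the same strand, and the part of this overlap in its low value was not tested.

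The calls for 3 of the V0 genes were lost without some single libraries and under other settings. ATP6V0B was lost in limma at adjusted p = 0.0596, 0.0600 and 0.0608 when si-NC replicate 1, si-NC replicate 2 or si-circTMEM45A replicate 2 was left out (range over 17 alternatives 0.00206 to 0.0608). ATP6V0D1 was lost in limma at adjusted p = 0.0666, 0.0688, 0.0939 and 0.101 without si-NC replicates 2 and 3 and si-circTMEM45A replicates 2 and 3 (range 0.000233 to 0.113). ATP6V0E1 was lost in limma at adjusted p = 0.0791, 0.0867, 0.0694 and 0.0926 without si-NC replicates 1 and 2 and si-circTMEM45A replicates 1 and 3 (range 0.00303 to 0.0969). With low genes kept in, the limma adjusted p was 0.0523 for ATP6V0B, 0.113 for ATP6V0D1 and 0.0969 for ATP6V0E1. With no variance trend in limma it was 0.0530 for ATP6V0D1 and 0.0604 for ATP6V0E1. In the fits without 1 library all 3 kept a log2 fold change above 0, at 0.19 to 0.42.

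The V1 members, which form the ATP-hydrolysing head and its stalks, ranged in log2 fold change from -0.14 to 0.09. ATP6V1A, the catalytic subunit A, had 18.5, 17.6 and 19.0 FPKM with si-NC and 17.6, 15.6 and 16.8 FPKM with si-circTMEM45A. Its si-circTMEM45A libraries were the lower ones, and the closest pair was si-circTMEM45A replicate 1 and si-NC replicate 2 (log2 fold change -0.14 ± 0.05, SE; limma adjusted p = 0.124). The nucleotide-binding subunit ATP6V1B2 had a log2 fold change of -0.10, and the stalk and regulatory subunits ATP6V1C1, ATP6V1D, ATP6V1E1 and ATP6V1H had 0.09, 0.00, 0.07 and 0.09, with limma adjusted p from 0.214 to 0.978. Of the accessory proteins, ATP6AP1 had 31.4, 30.2 and 33.6 FPKM with si-NC and 30.5, 30.6 and 32.7 FPKM with si-circTMEM45A, groups that overlapped (limma adjusted p = 0.800). ATP6AP2, also called the prorenin receptor, was at 12.57 to 12.61 FPKM with si-NC and 12.5 to 13.0 FPKM with si-circTMEM45A (limma adjusted p = 0.741).

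Pump subunits outside the 45 genes gave no further call. Of 13 listed, 11 had values, 6 were tested and 0 passed in limma (2 had an unadjusted p under 0.05). TCIRG1, the a3 isoform of the same subunit as ATP6V0A1 and more abundant than it, had 19.2 ± 0.63 FPKM with si-NC and 17.2 ± 1.37 FPKM with si-circTMEM45A (SD, n = 3; limma adjusted p = 0.133). The a2 isoform ATP6V0A2 had a log2 fold change of -0.02 (limma adjusted p = 0.875) and RNASEK, a small V0 component, 0.23 (limma adjusted p = 0.241). The V1 subunit ATP6V1F came closest to the threshold, at 29.7 ± 1.31 and 34.9 ± 3.02 FPKM (limma adjusted p = 0.0558). Its groups did not overlap, and its log2 fold change was 0.23, beside 0.23 for the called ATP6V0E1. The median log2 fold change was -0.02 for the 3 other tested V0 subunits, 1 of them above 0. It was 0.13 for the 3 other tested V1 subunits, all 3 above 0. None of 6 tested pump assembly genes passed in limma (0 had an unadjusted p under 0.05), with log2 fold changes of -0.07 to 0.06.

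**Figure D3:**
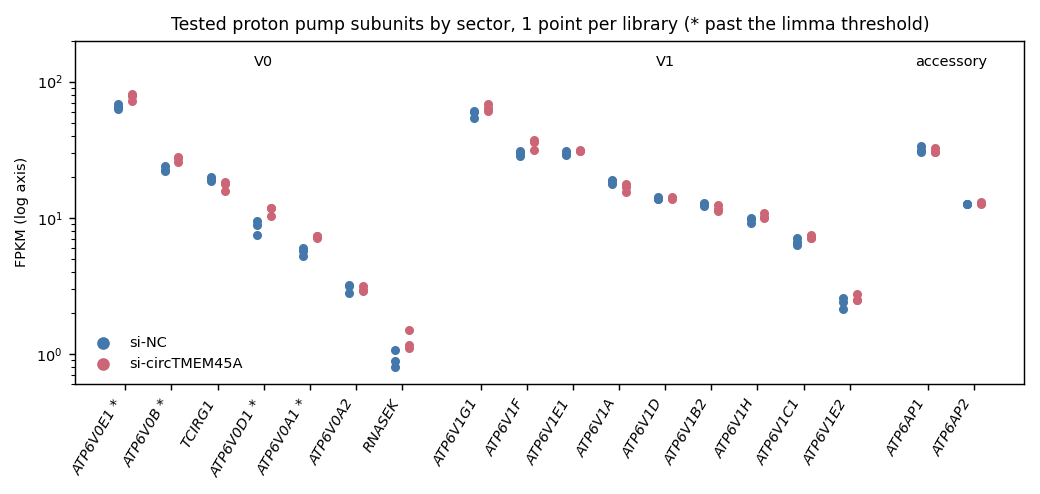
FPKM (log axis) of the 18 tested proton pump genes, members and others, by sector, with 3 points for si-NC (blue) and 3 for si-circTMEM45A (red) each, in order of si-NC mean within a sector. Asterisks mark ATP6V0E1, ATP6V0B, ATP6V0D1 and ATP6V0A1, which passed in limma. The other V0 genes, TCIRG1, ATP6V0A2 and RNASEK, and all V1 and accessory genes did not pass.

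Among autophagy genes, GABARAPL1 had the smallest adjusted p. It encodes a ubiquitin-like protein of the GABARAP family that is attached to autophagosomes (ENSG00000139112, GRCh38 chromosome 12, 10212458 to 10223130). It had 19.6, 19.9 and 19.8 FPKM with si-NC and 24.5, 24.4 and 25.4 FPKM with si-circTMEM45A. The libraries of each group lay close together and the 2 groups were far apart for their spread. The mean went from 19.7 ± 0.16 to 24.8 ± 0.56 FPKM (SD, n = 3), a log2 fold change of 0.31 ± 0.04 (SE; adjusted p = 0.00264 by limma), and the call held in all 17 alternatives. SQSTM1, the ubiquitin-binding cargo receptor p62 (ENSG00000161011, GRCh38 chromosome 5, 179806398 to 179838078), had 46.4, 42.9 and 42.3 FPKM with si-NC and 52.7, 54.3 and 51.0 FPKM with si-circTMEM45A. The highest si-NC library, replicate 1, stayed below all si-circTMEM45A libraries. Its log2 fold change was 0.26 ± 0.05 (SE; adjusted p = 0.0110 by limma), called in all 17 alternatives. On the opposite strand 22% of its exon length lies in other genes, among them MRNIP and MGAT4B, and the strand setting of the counting was not stated.

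The relatives of GABARAPL1 did not pass. GABARAPL2 had 22.4, 24.2 and 23.2 FPKM with si-NC and 25.9, 22.7 and 23.9 FPKM with si-circTMEM45A. MAP1LC3B, the LC3 protein widely used to mark autophagosomes, had 8.78, 8.11 and 8.30 FPKM with si-NC and 9.20, 8.29 and 8.59 FPKM with si-circTMEM45A. In both genes the groups overlapped, with 95% intervals of the log2 fold change of -0.08 to 0.18 and -0.08 to 0.17 (limma adjusted p 0.560 and 0.605), both lying below the interval of 0.23 to 0.40 for GABARAPL1. The difference between these genes was not itself tested. GABARAP, normally expressed in most cells, had 0.08, 0.08 and 0.18 FPKM with si-NC and 0.10, 0 and 0.08 FPKM with si-circTMEM45A, from 0 to 7 reads per library. The annotation gives 30.5% of its exon length to another gene on the same strand and 55.7% to genes on either strand, and the part of this overlap in its low value was not tested. MAP1LC3B2, a near-identical copy of MAP1LC3B that could take some of its reads, was at 0.47 to 0.89 FPKM.

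The initiation and lipidation genes that rose were ULK1, BECN1 and ATG16L1. ULK1, the kinase that starts autophagy, had 7.63, 6.76 and 7.38 FPKM with si-NC and 8.44, 8.85 and 9.48 FPKM with si-circTMEM45A. All si-circTMEM45A libraries were higher, with a log2 fold change of 0.27 ± 0.06 (SE; adjusted p = 0.0256 by limma). ATG16L1, which brings the conjugation enzyme to the membrane, had 7.47, 6.86 and 7.85 FPKM with si-NC and 9.86, 9.76 and 8.76 FPKM with si-circTMEM45A. The groups did not overlap, and the log2 fold change was 0.32 ± 0.07 (SE; adjusted p = 0.0176 by limma). BECN1, a scaffold of the lipid kinase complex, had 9.64, 8.87 and 9.16 FPKM with si-NC and 10.3, 10.3 and 10.6 FPKM with si-circTMEM45A. Its log2 fold change of 0.16 ± 0.04 (SE) was just past the threshold, at a limma adjusted p of 0.0497.

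These 3 calls were lost under some alternatives, unlike those of GABARAPL1 and SQSTM1. ULK1 was lost in limma at adjusted p = 0.0738, 0.0627, 0.0668 and 0.0819 without si-NC replicates 2 and 3 and si-circTMEM45A replicates 2 and 3 (range over 17 alternatives 0.00133 to 0.0819). ATG16L1 was lost in limma when si-NC replicate 2 or si-circTMEM45A replicate 2 was left out, with adjusted p of 0.0519 and 0.0590 (range 0.000504 to 0.0590). With low genes kept in, the limma adjusted p was 0.0769 for ULK1 and 0.0584 for ATG16L1. BECN1 was lost in 13 of 17 alternatives (limma adjusted p 0.0327 to 0.140), among them TPM (0.0631), median-of-ratios scaling (0.0953), quantile normalization (0.0811) and the fit without any 1 library, at 0.0579, 0.140 and 0.128 without si-NC replicates 1, 2 and 3 and 0.0839, 0.103 and 0.139 without si-circTMEM45A replicates 1, 2 and 3. BECN1 shares 17.1% of its exon length with genes on the opposite strand, such as PSME3.

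**Figure D4:**
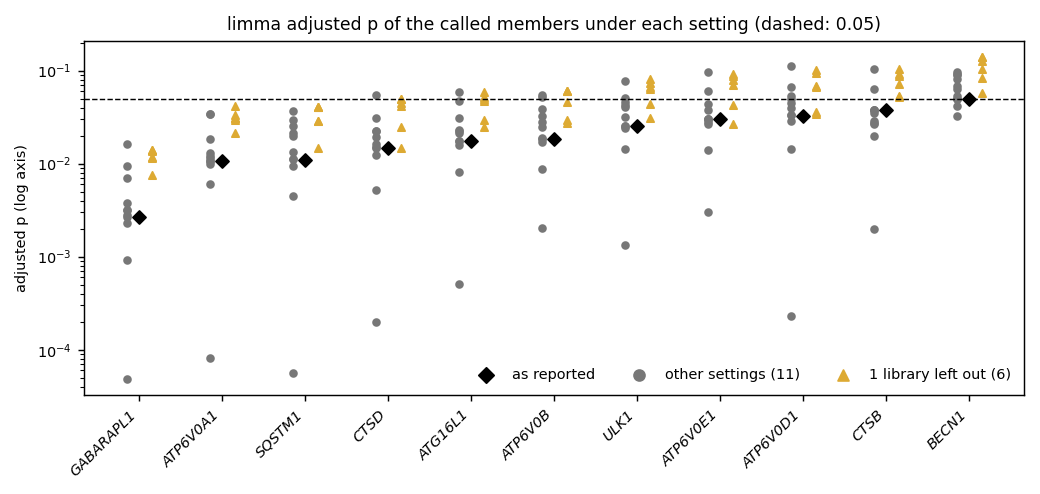
Limma adjusted p (log axis) of the 11 called genes as reported (black diamonds), under 11 other settings (grey circles) and with 1 library left out (6 yellow triangles). The dashed line is the threshold of 0.05. GABARAPL1, ATP6V0A1 and SQSTM1 stay below it throughout, and CTSB and BECN1 are above it in all 6 fits that leave out 1 library.

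The other autophagy members did not pass. WIPI2, which binds the phosphoinositide made at the forming membrane and recruits ATG16L1, had a log2 fold change of 0.14 ± 0.07 (SE; adjusted p = 0.203 by limma). Its si-circTMEM45A replicate 1, at 9.32 FPKM, lay just below the si-NC range of 9.34 to 9.54 FPKM, while the other si-circTMEM45A libraries had 11.4 and 10.9 FPKM. Without that library WIPI2 was called, at a limma adjusted p of 0.0246 (range over 17 alternatives 0.0246 to 0.449). ATG5 and ATG7, parts of the conjugation system, had log2 fold changes of -0.04 and 0.12, and the receptor OPTN had -0.00 (limma adjusted p 0.749, 0.215 and 0.941). The summed FPKM of the 12 autophagy members was 160 to 165 in si-NC libraries and 182 to 184 in si-circTMEM45A libraries, and that of the 13 pump members 232 to 243 and 251 to 264. For the 20 lysosomal members the sums overlapped, at 503 to 530 and 520 to 530 FPKM. Abundant genes weigh most in such sums, which were not tested. The most abundant pump member was the called ATP6V0E1, at means of 65.6 FPKM with si-NC and 76.9 FPKM with si-circTMEM45A. The most abundant autophagy member was the called SQSTM1, at 43.8 and 52.7 FPKM. Amounts of protein, lysosomal acidity and autophagic flow were not measured.

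The wider pathway was read from 9 further lists of 166 genes, of which 161 had values and 143 were tested. Of these, 23 rose and 8 fell, and their median log2 fold change was 0.05. The share that rose was 16.1% and the share that fell 5.59%, beside 11.1% and 7.64% for all tested genes. Among 30 other lysosomal hydrolases 8 rose and 4 fell. The mannosidase MAN2B1 rose from 7.47 ± 0.27 to 9.66 ± 0.35 FPKM and the sphingomyelinase SMPD1 from 19.4 ± 0.45 to 23.6 ± 0.75 FPKM, while the cysteine protease CTSV fell from 7.59 ± 0.32 to 5.71 ± 0.32 FPKM.

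Of 18 other lysosomal membrane proteins 2 rose and 1 fell. The ion channel TMEM175 rose from 5.34 ± 0.55 to 7.26 ± 0.12 FPKM and the cystine exporter CTNS from 7.68 ± 0.12 to 8.92 ± 0.35 FPKM, and LAPTM4B fell from 118 ± 3.09 to 104 ± 0.92 FPKM. Of 11 genes that sort enzymes to the lysosome 3 rose and 0 fell. They were the mannose 6-phosphate receptor IGF2R, the adaptor GGA1 and CLN8, which helps enzymes leave the endoplasmic reticulum, with log2 fold changes of 0.27, 0.23 and 0.23. None of 18 tested genes passed in limma on the list of mTORC1 and of genes linked to it, transcription factors among them. This nutrient-sensing kinase complex at the lysosome restrains TFEB and ULK1. Log2 fold changes on the list ran from -0.05 to 0.20, the highest that of the transcription factor MITF (limma adjusted p = 0.189). At an unadjusted p under 0.05 the count for this list was 1 (MTOR).

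Of 27 other genes of autophagosome formation 4 rose and 1 fell. The 4 with the smallest p were the LC3-processing protease ATG4A (5.39 ± 0.42 to 7.79 ± 0.39 FPKM; SD, n = 3), the phosphoinositide-binding WIPI1 (4.55 ± 0.16 to 5.94 ± 0.16 FPKM), NRBF2 of the lipid kinase complex (9.15 ± 0.35 to 11.3 ± 0.52 FPKM), which rose, and the lipid scramblase TMEM41B (10.2 ± 1.02 to 8.25 ± 0.17 FPKM), which fell. Of 13 other receptors and their regulators 4 rose and 2 fell. The cargo receptor TAX1BP1 rose from 22.1 ± 0.75 to 26.1 ± 1.15 FPKM, TOLLIP from 12.6 ± 0.25 to 14.6 ± 0.33 FPKM and the endoplasmic reticulum receptor TEX264 from 7.78 ± 0.20 to 9.08 ± 0.22 FPKM, and the mitophagy receptor BNIP3 fell from 2.57 ± 0.14 to 1.78 ± 0.04 FPKM. Of 14 genes that fuse autophagosomes with lysosomes 2 rose and 0 fell, these being the SNARE protein YKT6 (73.7 ± 1.44 to 88.3 ± 1.02 FPKM) and VPS18, a subunit of the HOPS tether (9.92 ± 0.65 to 12.6 ± 1.48 FPKM).

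**Figure D5:**
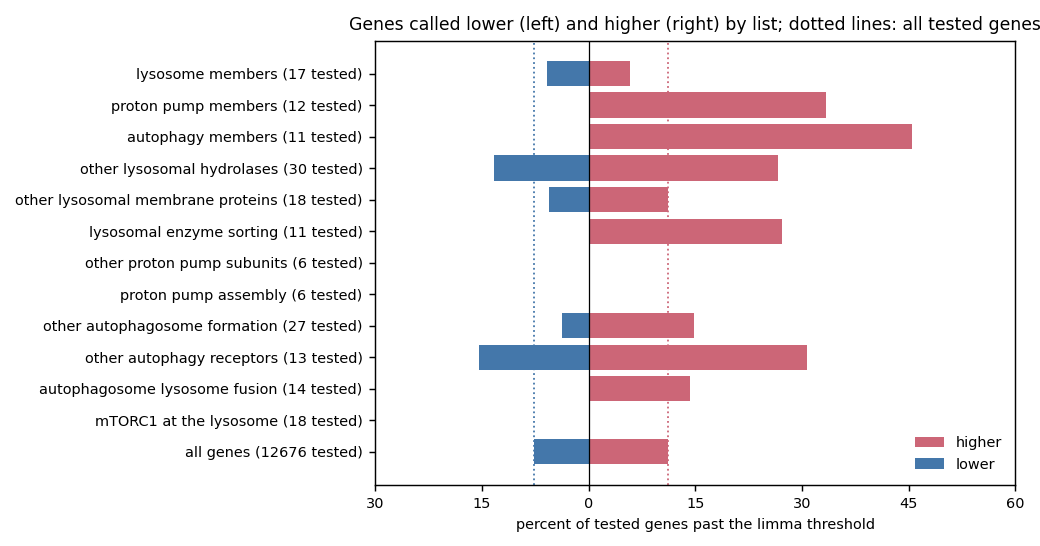
Share of tested genes called higher (red, to the right) and lower (blue, to the left) in limma for the 3 groups and the 9 further lists, with all tested genes at the bottom and as dotted lines (11.1% higher, 7.64% lower). The autophagy members reach 45.5% higher with 0% lower, and the mTORC1, pump assembly and other pump subunit lists have no called gene.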

How the data were processed

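The authors deposited FPKM for each gene and library. The build GRCh38 and the tools HTSeq, StringTie 2.1.6, TopHat2, HISAT2 2.2.1 and cutadapt 1.9 are listed, without roles, per the submitters' processing notes. Libraries were grouped by title. Symbols matched 29593 of 29816 gene IDs and all 45 members. With GENCODE 29 exon lengths and 1 total per library, 100% of values came out as whole reads (tolerance 0.001), which gave the depth. Tested genes had 1 FPKM or more in 3 or more libraries. They were fitted with limma 3.58.1 (R 4.3.3) on log2(FPKM + 1) with its variance trend, and two-sided p-values were adjusted over all of them by Benjamini-Hochberg. The fit was tested on simulated data in which far fewer genes changed than were called here. The spread between simulated libraries was set in advance and not estimated from these libraries. The changed genes were drawn from all genes past the filter, so the shares below need not hold for the members. Of 50 genes changed 1.25-fold, 38% were called in the right direction. The share was 52% at 1.5-fold, 80% at 2-fold and 96% at 4-fold. Another 8 genes, unchanged in the simulation, were also called. The members, lists, sector split and tests were chosen with earlier results of these data known. FPKM of every library is given for called members and a fixed set of others, and up to 4 called genes per further list by smallest p; 1 result that this rule would name is not reported here. ATP6V1F, TCIRG1, ATP6V0A2, RNASEK and MITF were named after their values were seen. Alternatives were quantile and median-of-ratios scaling, TPM, a filter at 5 FPKM or none, pseudocounts of 0.5 and 0.1, no trend, robust estimation, a replicate block, leaving out each library and, added after seeing the data, limma voom on the recovered reads. Python 3.11.15, pandas 2.3.3, numpy 2.4.6 and matplotlib 3.10.9 were used. Listed genes without a row were not analysed here.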

Additional observations from a re-analysis of the deposited data

How the results depend on the processing

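GABARAPL1, SQSTM1 and ATP6V0A1 were called in limma under all 17 alternatives, and no called gene changed direction in any. The count of members called higher was 10 as reported. With no filter on low values it was 3 (2.44% of all genes then), with 1254 genes called in all in place of 2380 and 0 members called lower. With the filter at 5 FPKM it was 10 (17.7% of all genes then), and with limma voom 10 (15.5% of all genes then). With the replicate block it was 6 (7.89% of all genes then). With 1 library left out it was 4 to 9 (6.11% to 8.58% of all genes then). The count called lower, 1 as reported, was 0 with no mean-variance trend and 0 to 0 with 1 library left out, where 1341 to 1945 genes were called in all. Same-numbered libraries of the groups deviated with correlations of 0.01 to 0.05, and other pairs with -0.05 to 0.02. Not every library correlated best with its own number. Correlations this small cannot tell whether same-numbered libraries share a batch. With the replicate block 1720 genes were called in all, and ATP6V0B, ATP6V0D1, ULK1 and BECN1 were not (limma adjusted p 0.0545, 0.0664, 0.0503 and 0.0912). Median-of-ratios and quantile scaling moved the split of all calls from 1411 higher and 969 lower to 1078 and 1206, and 1119 and 1168. They gave medians of 0.052 and 0.054 for pump members and 0.12 and 0.12 for autophagy members, -0.002 and 0.011 for lysosomal members, and 0.0035 and 0.00066 for all tested genes in place of 0.028. Limma voom gave 0.16 for autophagy members. With 1 library left out the medians were 0.01 to 0.05 (lysosome), 0.051 to 0.090 (pump) and 0.11 to 0.16 (autophagy). The cause was not tested. With 3 libraries a group, the 95% interval of 34 of 40 members spans over 0.2 on the log2 scale. Small changes could therefore be missed, although BECN1 was called at a log2 fold change of 0.16.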
